A study of Homo sapiens with 7 samples.

Results

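The genes examined here write, copy or remove the methyl mark on cytosine. They are the DNA methyltransferases DNMT1, DNMT3A and DNMT3B, the cofactor DNMT3L, the hemimethyl-CpG reader UHRF1, the dioxygenases TET1, TET2 and TET3, and the glycosylase TDG. They were chosen by name, 9 genes in all among 22670 rows, and 8 of them had a row of that name. UHRF1 had none and was not analysed here. Of the 8, 6 were above 4 FPKM (the length- and depth-scaled fragment density Cufflinks gives) in at least 1 library, and DNMT3L and TET2 were not.

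RNA-seq had been performed on SEES-3 cells, a line of human embryonic stem cells (hESCs) grown without feeder cells. JMJD3c-hESCs carried a doxycycline (Dox)-inducible HA-tagged JMJD3c, the catalytic region of the H3K27 demethylase JMJD3 (KDM6B), and were sampled without Dox (Day 0) and after 1, 2, 3 and 4 days of Dox at 1 µg/ml. JMJD3c mut-hESCs carried the same construct with a point mutation that removes catalytic activity, and gave an untreated library and a Dox library of Day 4. Both lines were stable puromycin-resistant derivatives with a piggyBac insertion and a constitutive reverse Tet-transactivator. Each of the 7 conditions had 1 library, so the differences given are between single cultures, without p-values. The scales of error used instead were Cufflinks's 95% interval, which covers the estimate within 1 library only, and the difference between the untreated libraries of the 2 lines. By the cutoffs of the study, a gene was upregulated when its ratio exceeded 2 and the first library held over 4 FPKM, and downregulated when its ratio was under 0.5 and the second library held over 4 FPKM. Log2 fold changes are of FPKM + 1.

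In mammals, DNMT3A and DNMT3B place methyl groups on CpG sites that carry none, DNMT3L stimulates them without being an enzyme itself, and DNMT1, brought to replicating DNA by UHRF1, copies the pattern onto the new strand. TET enzymes oxidize 5-methylcytosine, and TDG excises the most oxidized forms, which base excision repair then replaces with unmodified cytosine. Primed hESCs are known for high DNMT3B and TET1, and the balance among the TET enzymes shifts as pluripotent cells differentiate.

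KDM6B, the gene the construct derives from, had 3.45 FPKM at Day 0 and 158, 212, 248 and 282 FPKM on Days 1 to 4. It was at 2.40 FPKM in JMJD3c mut-hESCs without Dox and 454 FPKM with Dox. KDM6B was thus higher in every Dox library than in the untreated libraries, and highest with the mutant. FPKM per gene does not separate the construct, which holds part of the gene, from the endogenous gene. The study reported endogenous JMJD3 as upregulated in Dox-treated JMJD3c-hESCs. Depth, estimated from the steps between low FPKM values, was 3550000 reads at Day 0, the shallowest library, and up to 7320000 in the untreated mutant line. The primed hESC markers (8 of 8 present in every library) summed to 2278 FPKM at Day 0 and 2133 FPKM in the untreated mutant line. Mesoendoderm markers summed to 5.71 and 12.1 FPKM in the same libraries, and S phase genes to 1317 and 1391 FPKM. In these bulk samples, fewer cells of a type and less RNA per cell cannot be told apart.

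The levels were dominated by 1 enzyme. On the FPKM scale, which is per length of transcript, the order at Day 0 was DNMT3B, DNMT3A, DNMT1, TDG, TET1, TET3, with DNMT3L and TET2 listed at 0. TDG and TET1 were neighbours whose intervals overlapped, and the other neighbours above 0 had intervals apart. The order of the first 5 was the same in all 7 libraries except Day 4, where TET3 stood above TET1 with overlapping intervals.

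**Figure D1:**
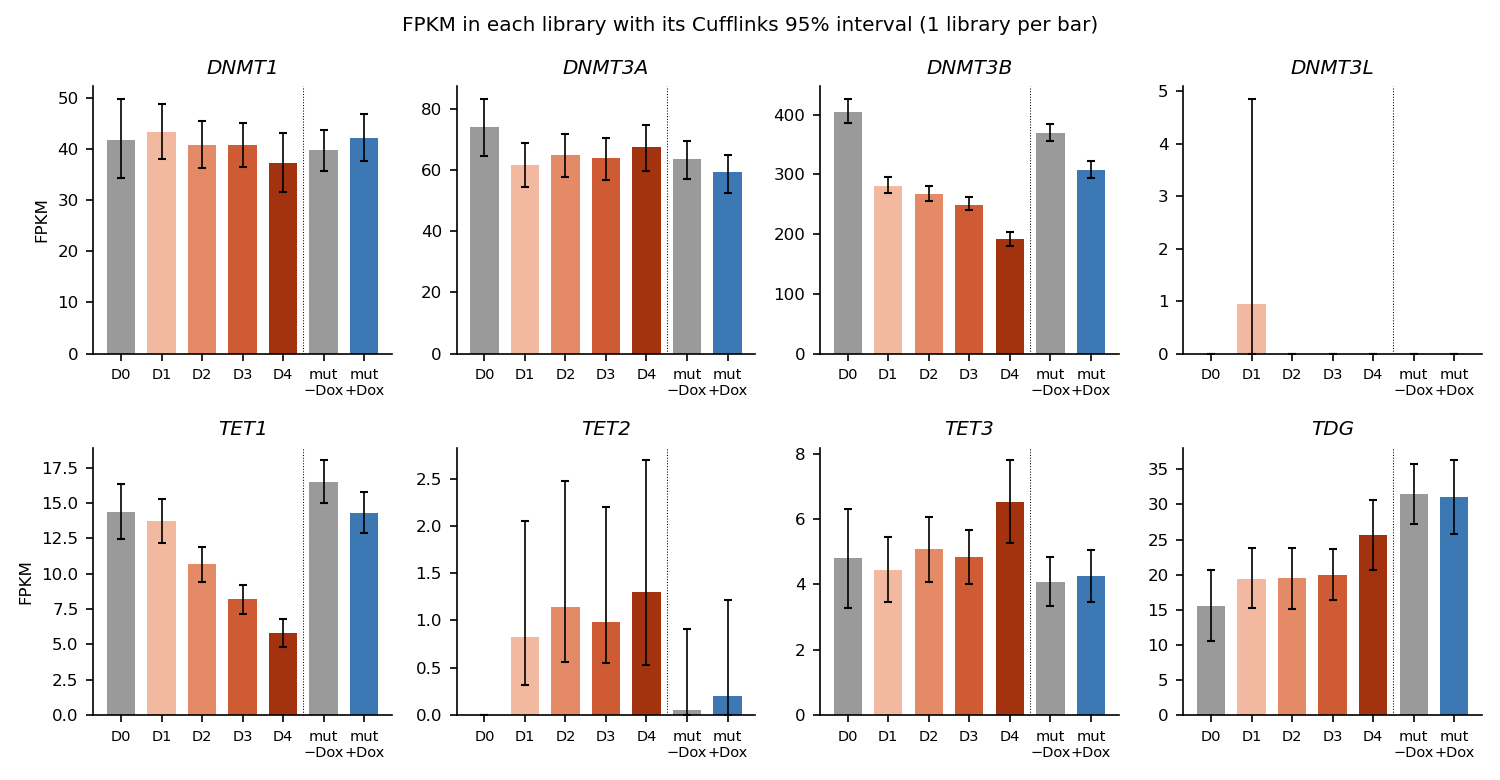
FPKM (vertical axis) of the 8 genes in each of the 7 libraries, 1 library per bar, with Cufflinks 95% intervals as error bars; D0 to D4 are days of Dox in JMJD3c-hESCs, and the bars right of the dotted line are JMJD3c mut-hESCs without and with Dox. DNMT3B falls from 404 to 191 FPKM and TET1 from 14.4 to 5.83 FPKM across the days, while DNMT1 stays between 37.2 and 43.4 FPKM in all libraries.

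At Day 4 of Dox, 2 of the 6 genes above 4 FPKM were downregulated relative to Day 0, the de novo methyltransferase DNMT3B and the dioxygenase TET1. Among all 10247 genes above 4 FPKM in either library, 7.56% were downregulated. None of the 6 was upregulated, against 5.87% of all genes. By the same cutoffs, 7.01% of 10051 genes were lower in the untreated mutant line than at Day 0, and 2.78% were higher. The study itself had listed DNMT3B and TET1 among pluripotency-related genes from these libraries, so their direction is not independent evidence.

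The 250 bases before 1 RefSeq transcription start per gene are shown for DNMT3B, TET1 and TET2. These are the 3 genes whose log2(FPKM + 1) ranged over at least 1 unit across the 7 libraries. They are shown because CpG sites are the substrate of the enzymes these genes encode. The sequences are from RefSeq on GRCh38.p14, plus strand, 5′ to 3′, with each CG in capitals. They lie at chr20:32779602-32779851 for DNMT3B, chr10:68560087-68560336 for TET1 and chr4:105145625-105145874 for TET2.
DNMT3B: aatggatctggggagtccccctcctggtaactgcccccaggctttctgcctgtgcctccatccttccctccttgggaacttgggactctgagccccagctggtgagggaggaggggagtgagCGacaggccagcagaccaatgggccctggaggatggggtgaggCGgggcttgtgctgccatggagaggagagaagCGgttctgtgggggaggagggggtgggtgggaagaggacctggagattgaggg
TET1: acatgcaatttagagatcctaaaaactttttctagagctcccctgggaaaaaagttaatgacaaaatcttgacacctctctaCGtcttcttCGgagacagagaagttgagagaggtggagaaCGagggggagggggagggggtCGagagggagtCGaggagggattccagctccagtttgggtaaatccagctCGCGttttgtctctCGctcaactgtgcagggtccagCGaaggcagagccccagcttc
TET2: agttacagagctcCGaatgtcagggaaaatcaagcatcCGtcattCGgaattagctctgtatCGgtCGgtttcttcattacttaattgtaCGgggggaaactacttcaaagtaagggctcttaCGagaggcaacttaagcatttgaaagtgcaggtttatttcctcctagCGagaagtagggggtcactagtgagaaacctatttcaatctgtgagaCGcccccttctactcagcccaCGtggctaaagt

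These windows held 3 CG dinucleotides for DNMT3B, 9 for TET1 and 10 for TET2, near or below the median of 11 over 35116 promoters of the same length. Of those promoters, 22.9% held fewer than the DNMT3B window. The windows of the other genes held 12 for DNMT3A, 21 for DNMT1, 22 for TDG and 37 for TET3, and 96.0% of promoters held fewer than TET3. A link between CG count and range across the libraries was not tested. The range of TET2 rests on values below 4 FPKM and on the pseudocount. DNMT3A has 6 starts in the RefSeq table, TET1 3, and TET2 and TET3 2 each, and 1 was taken for each gene. Whether that start is the 5′ end of the gene, or the start used in these cells, was not checked. The DNMT3B window may lie before an internal start of the gene. Its CG count and the words found in it are therefore those of this window only. On both strands, CCAAT was found in the DNMT3B and TDG windows (32.0% of promoters hold it), CACGTG in the TET2, TET3 and TDG windows (6.34%), and GGGCGG in the TET3 window (42.6%). The octamer ATGCAAAT (1.63% of promoters) and the E2F-type words TTTCGCGC or TTTGGCGC (0.968%) were in none of the 7 windows searched. DNMT3L was not matched.

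DNMT3B (ENSG00000088305, chromosome 20 of hg19, 31350191 to 31397162), the main de novo enzyme of hESCs, had 404 FPKM without Dox at Day 0 (interval 385 to 426 FPKM), then 280, 267 and 249 FPKM on Days 1 to 3, and ended with 191 FPKM on Day 4 (interval 180 to 203 FPKM). In JMJD3c mut-hESCs it was at 369 FPKM without Dox and 308 FPKM with Dox. All 4 Dox libraries of JMJD3c-hESCs were therefore below the other 3 libraries, and each day was below the day before. Of 10878 genes, 10.6% were lower on Days 1 to 4 than in both untreated libraries, DNMT3B and TET1 among them. The ratio of Day 4 to Day 0 was 0.473, a log2 fold change of -1.07, and 5.06% of the 10247 genes had a lower one. When the interval ends were set against each other, the ratio lay between 0.423 and 0.527, which includes the cutoff of 0.5. Of the 6 genes above 4 FPKM, those with intervals apart from Day 0 at Day 4 were DNMT3B and TET1, which were lower, and TDG, which was higher, beside 7% and 5.15% of all genes.

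At Day 1 DNMT3B had covered 58.3% of its fall in FPKM from Day 0 to Day 4, or 49.0% on the log2 scale, and 49.8% of the FPKM difference from the untreated mutant line. Day 1 was lower than Day 0 with intervals apart, as in 2.54% of genes, and a ratio of 0.693, short of the cutoff. The intervals of consecutive days overlapped from Day 1 to Day 3. The step from Day 3 to Day 4 had a ratio of 0.768 with intervals apart, as in 2.64% of genes.

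DNMT3B was also lower with the catalytically inactive mutant. Its ratio with to without Dox in JMJD3c mut-hESCs was 0.835, with intervals apart (1.68% of genes were lower in this way), a log2 fold change of -0.26. None of the 6 genes passed the cutoffs in that comparison, where 1.53% of 9736 genes were downregulated and 1.25% were upregulated. Between the untreated libraries of the 2 lines the DNMT3B ratio was 0.912, mutant line to Day 0, also with intervals just apart, as in 6.93% of genes. The ratio with JMJD3c divided by the ratio with the mutant was 0.567.

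TET1 (ENSG00000138336, chromosome 10 of hg19, 70320413 to 70454239), the TET enzyme most abundant in primed hESCs, had 14.4 FPKM without Dox at Day 0 (interval 12.5 to 16.3 FPKM), then 13.7, 10.7 and 8.19 FPKM on Days 1 to 3, and ended with 5.83 FPKM on Day 4 (interval 4.81 to 6.80 FPKM). JMJD3c mut-hESCs had 16.5 FPKM without Dox and 14.3 FPKM with Dox. Day 1 lay just under Day 0 and both libraries of the mutant line, and each later day was lower. The ratio of Day 4 to Day 0 was 0.404, a log2 fold change of -1.17, with 0.295 to 0.546 from the interval ends.

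At Day 1 the interval of DNMT3B was apart from that of Day 0, and the interval of TET1 overlapped it. TET1 had covered 7.78%, 43.7% and 72.5% of its Day 4 fall after 1, 2 and 3 days, where DNMT3B had covered 58.3%, 64.7% and 72.9%. Taken from the untreated mutant line, the Day 1 share of TET1 was 26.0%. TET1 intervals were apart at each of the steps from Day 1 to Day 2 (1.82% of genes were lower in this way), Day 2 to Day 3 (1.27%) and Day 3 to Day 4. Of the 6 genes above 4 FPKM, DNMT3B and TET1 were lower at every step from Day 0 to Day 4, as were 3.55% of 10778 genes, and no difference between the 2 time courses was tested.

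Against the Dox-treated mutant line, which had the same days of Dox, Day 4 had 1 of the 6 genes downregulated, TET1, with 3% of 9999 genes downregulated in all. The TET1 ratio was 0.407, and 1.15% of genes had a lower log2 fold change. DNMT3B had a ratio of 0.622, which did not pass the cutoff. Intervals were apart for DNMT3B and TET1 as the lower genes (8.67% of all genes). Against the untreated mutant line the TET1 ratio was 0.352 and the DNMT3B ratio 0.519, so that TET1 alone of the 6 was downregulated there too, among 3.9% of 10045 genes, and both had intervals apart (9.96%). The comparisons of Day 4 share the Day 4 library, and those with Day 0 share Day 0.

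DNMT3A (ENSG00000119772, chromosome 2 of hg19, 25455845 to 25565459), the other de novo enzyme, was at 74.0, 61.7, 64.9, 63.8 and 67.5 FPKM on Days 0 to 4. It was at 63.7 FPKM in JMJD3c mut-hESCs without Dox and 59.4 FPKM with Dox. Day 0 was the highest of the 7 libraries, and its interval overlapped that of Day 4, at a ratio of 0.912. The DNMT3A ratio with JMJD3c divided by that with the mutant was 0.977.

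The share of DNMT3B in the sum of DNMT3A and DNMT3B FPKM was lower at Day 4. It was 84.5, 82.0, 80.4, 79.6 and 73.9% on Days 0 to 4, and 85.3% and 83.8% in JMJD3c mut-hESCs without and with Dox. DNMT3B remained the more abundant of the pair in every library, at 5.47 times DNMT3A at Day 0 and 2.84 times at Day 4. A share of this kind is taken within 1 library and does not depend on scaling between libraries.

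DNMT1 (ENSG00000130816, chromosome 19 of hg19, 10244022 to 10341962), the maintenance methyltransferase, was at 41.9, 43.4, 40.9, 40.8 and 37.2 FPKM on Days 0 to 4. In JMJD3c mut-hESCs it was at 39.8 FPKM without Dox and 42.3 FPKM with Dox. Its intervals overlapped in every comparison made, and its log2(FPKM + 1) ranged over 0.22 across the 7 libraries, the narrowest of the 6 genes above 4 FPKM. The ratio of Day 4 to Day 0 was 0.890, with 0.635 to 1.26 from the interval ends. The exons of DNMT1 share 83 bases with S1PR2. The ratio of DNMT3B to DNMT1 was 9.66 at Day 0 and 5.14 at Day 4.

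DNMT3L (ENSG00000142182, chromosome 21 of hg19, 45666222 to 45682099), the cofactor without catalytic activity, was listed at 0 in 6 libraries and at 0.94 FPKM at Day 1, where the interval reached from 0 to 4.86 FPKM. Its annotated exons share 513 bases with another gene model on the same strand, ENSG00000279493, and 241 bases with the antisense DNMT3L-AS1, and reads there could belong to either. No change could be read from these values.

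The other TET enzymes did not follow TET1. TET3 (ENSG00000187605, chromosome 2 of hg19, 74229840 to 74335303) was at 4.79, 4.45, 5.07, 4.82 and 6.53 FPKM on Days 0 to 4, and at 4.08 and 4.25 FPKM in JMJD3c mut-hESCs without and with Dox. Day 4 was the highest library, as in 15.1% of 10878 genes. Its ratio to Day 0 was 1.36 with overlapping intervals, to the Dox-treated mutant line 1.54 and to the untreated mutant line 1.60, the last 2 with intervals apart, as in 7.58% and 8.65% of genes. None of these ratios passed the cutoff.

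TET2 (ENSG00000168769, chromosome 4 of hg19, 106067032 to 106200973) stayed low throughout. It was listed at 0 at Day 0, at 0.83, 1.15, 0.98 and 1.30 FPKM on Days 1 to 4, and at 0.06 and 0.20 FPKM in JMJD3c mut-hESCs without and with Dox. The 4 Dox libraries of JMJD3c-hESCs were above the other 3, but all were below the FPKM cutoff. The Day 4 interval, 0.53 to 2.69 FPKM, overlapped those of both mutant-line libraries, which reached 0.91 and 1.22 FPKM. No fold is given against Day 0, where TET2 was listed at 0. At the estimated depth, 3 reads at Day 0 would have been worth 0.08 FPKM for TET2, for counting error only, and the listed interval of 0 to 0 carries no uncertainty of its own.

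The makeup of TET transcripts thus differed between the days, while their sum moved less than TET1. The 3 TET genes summed to 19.2, 19.0, 16.9, 14.0 and 13.7 FPKM on Days 0 to 4, and to 20.7 and 18.8 FPKM in JMJD3c mut-hESCs without and with Dox. TET1 made up 75.0% of this sum at Day 0 and 42.7% at Day 4, against 80.0% and 76.3% in the mutant line. The share of TET3 was 25.0% at Day 0 and 47.8% at Day 4, and that of TET2 reached 9.51% at Day 4. TET1 was at 3.01 times TET3 at Day 0 and 0.892 times at Day 4, where the intervals of both overlapped.

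TDG (ENSG00000139372, chromosome 12 of hg19, 104359582 to 104382652), the glycosylase that acts after the TET enzymes, had 15.5 FPKM without Dox at Day 0 (interval 10.5 to 20.6 FPKM), 19.3, 19.5 and 20.0 FPKM on Days 1 to 3, and 25.7 FPKM on Day 4 (interval 20.7 to 30.7 FPKM). It was at 31.5 and 31.0 FPKM in JMJD3c mut-hESCs without and with Dox. The JMJD3c days were thus each above the day before, as in 3.32% of 10778 genes, but all lay below both libraries of the mutant line. The ratio of Day 4 to Day 0 was 1.66, with intervals barely apart, and did not pass the cutoff. TDG was the 1 gene of the 6 past the cutoffs between the untreated libraries, at a ratio of 2.03, mutant line to Day 0, where 2.78% of 10051 genes were higher and 7.01% lower. Relative to the untreated mutant line the Day 4 ratio was 0.816 with overlapping intervals, so the direction for TDG depends on the untreated library.

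**Figure D2:**
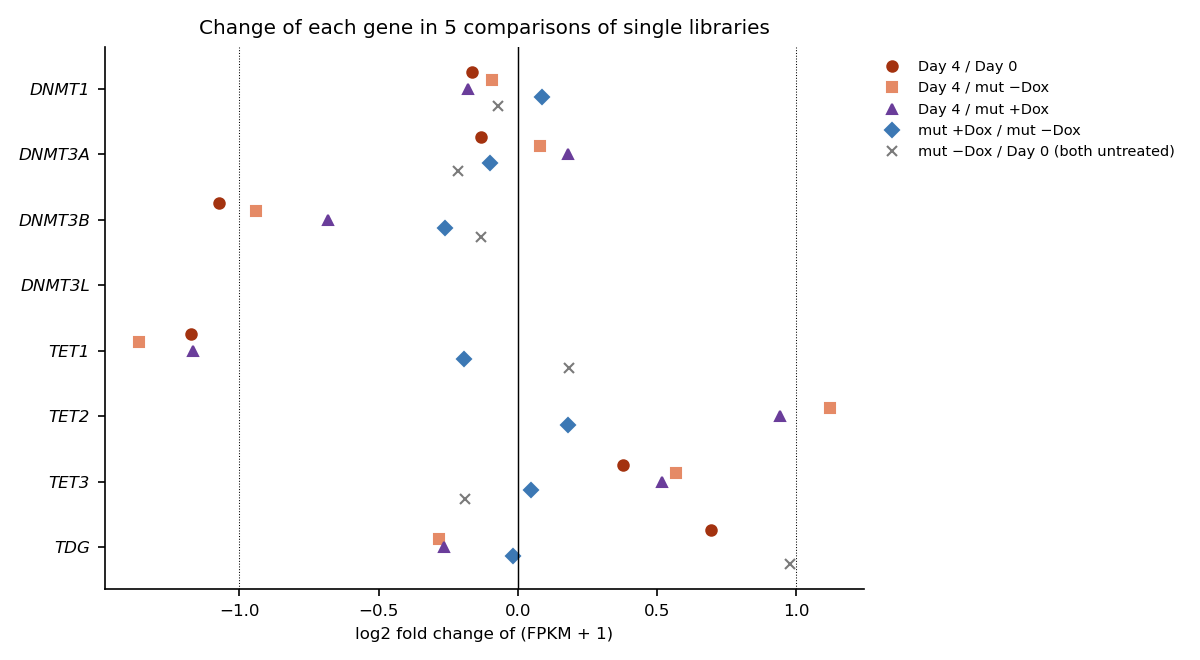
Log2 fold change of FPKM + 1 (horizontal axis) for the 8 genes in 5 comparisons of single libraries, 1 symbol per comparison; the dotted lines mark -1 and 1. TET1 lies between -1.36 and -1.17 in the 3 comparisons of Day 4, DNMT3B between -1.07 and -0.68, and TDG changes side, at 0.69 against Day 0 and -0.28 against the untreated mutant line. Comparisons with a library listed at 0 are not drawn.

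Over the 8 genes, 3 were higher and 4 lower at Day 4 than at Day 0. Their median log2 fold change was -0.07, beside -0.06 over all 10247 genes. In JMJD3c mut-hESCs 3 were higher and 4 lower with Dox, with a median of -0.01, beside 0.00 over all 9736 genes.

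The primed hESC markers were lower on the same days as DNMT3B and TET1. All 8 were lower at Day 4 than at Day 0, 6 with intervals apart, and 1, SOX2, was downregulated, with 136 FPKM at Day 0 and 65.9 FPKM at Day 4. Their sum was 2034, 1848, 1802 and 1688 FPKM on Days 1 to 4. All 8 were also lower with Dox in JMJD3c mut-hESCs, 5 with intervals apart, with a sum of 1860 FPKM. The median log2 fold change was -0.53 in JMJD3c-hESCs and -0.18 in JMJD3c mut-hESCs, and no marker was at 0 in any library. At Day 4 against the Dox-treated mutant line, where the TET1 ratio was 0.407, their median was -0.13, with 7 lower and 1 higher, of which 3 and 1 had intervals apart. POU5F1, which keeps hESCs pluripotent, was at 841 FPKM at Day 0, 619 FPKM at Day 4, and 716 and 629 FPKM in the mutant line without and with Dox. SOX2 was at 99.6 and 74.6 FPKM in the mutant line without and with Dox. Its interval with Dox there, 67.5 to 81.8 FPKM, overlapped that of Day 4, 58.6 to 73.2 FPKM. Over the same days the summed mesoendoderm markers went from 5.71 to 20.4, 98.7, 203 and 324 FPKM, and 9 of 10 were upregulated at Day 4, among them the NODAL antagonist CER1, the T-box factor EOMES and the forkhead factor FOXA2. They summed to 8.31 FPKM in the mutant line with Dox. Of the 5 neuroectoderm markers, 2 were upregulated at Day 4. They were OTX2 (18.9 to 47.7 FPKM), with intervals apart, and PAX6 (2.22 to 5.91 FPKM), with overlapping intervals. OTX2 was downregulated with the mutant (15.2 to 7.50 FPKM), also with overlapping intervals. None of the 5 naive pluripotency markers was above 4 FPKM at Day 0 or Day 4. The part of these marker groups in the values of DNMT3B and TET1 was not tested.

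Of the 14 genes of S phase and proliferation, which include PCNA, the clamp that DNMT1 binds at the replication fork, none passed the cutoffs at Day 4, 5 were higher and 9 lower, and their sum was 1264 FPKM at Day 4 against 1317 FPKM at Day 0.

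None of the 8 partners of maintenance methylation passed the cutoffs at Day 4 against Day 0, or in the mutant line. At Day 4, 2 had intervals apart from Day 0, both lower. They were HELLS, a chromatin remodeler needed for DNA methylation, at 73.9 FPKM at Day 0 and 40.9 FPKM at Day 4, and its partner CDCA7, at 44.5 and 29.0 FPKM. These 2 genes were chosen after their values were seen. Their list had a median log2 fold change of -0.19, with 3 higher and 5 lower. Against the untreated mutant line, Day 4 had 5 partners lower with intervals apart, a median of -0.48, and 1 downregulated, the zinc finger factor ZBTB24 (3.46 against 7.50 FPKM). Against the Dox-treated mutant line, 5 were lower with intervals apart, none passed the cutoffs, and the median was -0.36.

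None of the 8 chromatin regulators that guide de novo methylation passed the cutoffs at Day 4, and their median was 0.01. In JMJD3c mut-hESCs 1 did, KDM1B, an H3K4 demethylase required for methylation at imprinted genes in oocytes, at 3.13 FPKM without Dox and 8.43 FPKM with Dox, with overlapping intervals. It was between 2.25 and 3.65 FPKM in the 5 JMJD3c libraries, so the mutant line with Dox stood alone. None of the 8 suppliers and regulators of TET activity and none of the 7 methyl-CpG readers passed the cutoffs in either line, with medians of -0.04 and -0.05 at Day 4.

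Base excision repair had 4 of 15 genes past the cutoffs at Day 4 against Day 0, 2 in each direction. Of all genes, 7.56% were downregulated and 5.87% upregulated in that comparison. POLB, the polymerase that fills the gap, was at 14.0 FPKM without Dox and 32.3 FPKM at Day 4, and GADD45A, a stress-induced factor linked to demethylation, at 4.68 and 9.83 FPKM, both with overlapping intervals. NEIL1 and NEIL2, glycosylases for oxidized bases, had 11.6 and 16.6 FPKM at Day 0, and 1.05 and 7.16 FPKM at Day 4, with intervals apart for NEIL2. The untreated libraries themselves differed past the cutoffs for 3 of the 4, with intervals apart for NEIL2 but overlapping for POLB and NEIL1. The untreated mutant line had 30.6 FPKM of POLB, 3.28 FPKM of NEIL1 and 6.16 FPKM of NEIL2. GADD45A was at 6.75 FPKM there. None of the 15 passed the cutoffs in the mutant line. Against the untreated mutant line, none of the 4 passed at Day 4.

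Germline genes that promoter methylation keeps silent in somatic cells were low in every library. Of 17, 11 were listed at 0 at Day 0 and 10 at Day 4, and their sum was 15.7 FPKM at Day 0 and 9.50 FPKM at Day 4. In the mutant line it was 14.5 FPKM without Dox and 9.50 FPKM with Dox. The 1 past the cutoffs at Day 4 was SOHLH2, a germ cell transcription factor, with 2.13 FPKM against 6.49 FPKM at Day 0, and with 4.28 and 2.87 FPKM in the mutant line without and with Dox. None was upregulated in either line.

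Genes whose log2(FPKM + 1) profile over the 7 libraries was nearest to that of DNMT3B, after each mean was taken off, were PEX3, TWSG1 and PMAIP1, with root mean square differences of 0.08 to 0.09 among 10878 genes. PMAIP1, a BH3-only apoptosis gene, was at 94.2 FPKM at Day 0 and 45.7 FPKM at Day 4, and at 87.6 and 77.7 FPKM in JMJD3c mut-hESCs without and with Dox. Nearest to TET1 were TERF1, ZNF770 and EIF2AK4, at 0.09 to 0.10. TERF1, a telomere-binding protein, was at 178 FPKM at Day 0, 83.5 FPKM at Day 4, and 222 and 165 FPKM in the mutant line. Nearest to TET2 were GSTO1, TRO and ZNF710, at 0.11 to 0.13, all higher at Day 4 than at Day 0 and in both libraries of the mutant line. TET2 was below 4 FPKM in every library, so the shape of its profile, and this match, depend on the pseudocount. The 7 points of a profile share 2 lines and 1 time course.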

How the data were processed

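The authors sequenced poly(A) RNA on a MiSeq (directional library, 150-base single-end reads), mapped it to hg19 and deposited FPKM per gene with the lower and upper bounds of its 95% interval, also in FPKM. Per the labels, the tools were CASAVA 1.4, TopHat2 2.0.13 and Cufflinks 2.1.1. Rows were joined across libraries by gene ID and position. Cufflinks marked 35 genes as low data and 1, PAICS in the untreated mutant line, as failed. The genes examined and the gene lists were chosen with earlier results of these data known. Ratios used no pseudocount, and log2 fold changes used 1 FPKM. Background shares of a comparison were taken over genes above 4 FPKM in either library. Shares over 10778 genes used those above 4 FPKM in any library of JMJD3c-hESCs. Shares over 10878 genes used those above 4 FPKM in any library of either line. Named genes were the 9 listed, those past the cutoffs in each list (up to 3 each way; 1 list is not reported here), the 3 nearest profiles of genes ranging over 1 log2 unit, and KDM6B. Depth was estimated from whole-read steps of low values at Day 0 in 45 genes and from ratios of low values elsewhere. Computations used Python 3.11.15, numpy 2.4.6, pandas 2.3.3 and matplotlib 3.10.9, and were tested on simulated data. Alternatives changed the FPKM cutoff, pseudocount, scaling, intervals, summed rows, treated day and untreated library, and, chosen after seeing the data, the scale and reference of the share of a fall covered each day. ChIP and qRT-PCR data were not analysed here.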

Additional observations from a re-analysis of the deposited data

Results flagged for a closer look

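Of the 8 genes, 2 had log2 fold changes of opposite sign in the 2 lines, and the difference was not tested because each arm had 1 library. For DNMT1, the log2 fold change was -0.16 with JMJD3c (Day 4 against Day 0) and 0.09 with JMJD3c mut (with against without Dox), a difference of -0.25, and the intervals overlapped within each line. For TDG, it was 0.69 with JMJD3c and -0.02 with JMJD3c mut, a difference of 0.71, and the untreated libraries themselves differed by 0.98. In the mutant line the TDG intervals overlapped, at a ratio of 0.987, so a change there could not be read.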

How the results depend on the processing

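No paired analysis was possible because each condition had 1 library. Of 32 recomputed counts of genes past the cutoffs, 23 stayed within 1.5 times the reported count. These 23 include the counts with summed rows, which could not differ because each gene examined had 1 row of its name. The same holds for the log2 fold changes of these genes with summed rows. With Day 3 as the treated library, 0 genes passed in place of 2, and with the untreated mutant line as the reference, 1 (TET1). TET2, listed at 0 at Day 0, joined the higher genes where the cutoff was lowered: 3 genes at Day 4 against Day 0 with 1 FPKM or none, 2 against either mutant-line library with 1 FPKM or none, 1 in the mutant line with none, and 2 between the untreated libraries with none. Scaled to equal sums of FPKM, Day 4 against the untreated mutant line gave 2, DNMT3B and TET1. The log2 fold changes of DNMT3B and TET1 were -0.70 and -0.75 at Day 3. That of TDG was -0.28 against the untreated mutant line. Medians moved for germline genes (-0.32 for those above 1 FPKM), mesoendoderm markers (6.76 with a pseudocount of 0.1, 2.47 with 4, 4.71 scaled to equal sums, 3.20 at Day 3, with 6 of 10 listed at 0 at Day 0, so that the pseudocount sets their values) and neuroectoderm markers in the mutant line (-0.62 for those above 1 FPKM). No share moved, but this does not test the shares. Summed rows could not change them, with 1 row per gene, and a share does not depend on scaling between libraries. With no replicates, single-library differences between cultures cannot be separated from those of Dox. Day 0, the reference of the time course, was the shallowest library.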
